A study of Mus musculus with 4 samples.

Results

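Serpins are a family of proteins most of which inhibit proteases, and their messenger RNA levels are described here in mouse embryonic fibroblasts with and without PA1. The members were all probe sets whose only gene symbol on the array annotation starts with Serpin, 56 of 45037 probe sets, and they stand for 40 of 18193 named genes. A further 3 probe sets carry several serpin symbols each and were left out. All 4 arrays came from immortalised fibroblasts homozygous for a loxP-flanked PA1 allele. The 2 wild-type samples (PA1 +/+) had received a retroviral vector alone, and the 2 knockout samples (PA1 -/-) a retrovirus for Cre, an enzyme that cuts out DNA flanked by loxP. Both kinds of cell grew in DMEM with 10% FBS and went through repeated selection in 2.0 µg/ml puromycin for 3 days. How the cells were immortalised is not stated here. The vector control carried no Cre, so the presence of Cre and the loss of PA1 cannot be told apart. Each group holds arrays numbered 1 and 2, and nothing says that these came from separate cultures, so the p-values speak for the spread among these 4 arrays alone, and part of it may be technical.

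PA1 is read here as the gene Pagr1a, whose product belongs to the KMT2C and KMT2D histone methyltransferase complexes, and it is not a serpin. An inhibitory serpin offers a protease an exposed loop as bait. The cut loop folds into the body of the serpin, the protein changes shape, and the protease is held in a dead-end complex. Clade A serpins are mostly plasma proteins made in liver, clade B serpins mostly work inside cells, and a few members, such as the collagen chaperone of clade H, inhibit no protease. Fibroblasts are known to secrete several serpins that act on plasmin, complement or matrix.

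The samples read as fibroblasts. Of 11 fibroblast markers measured, 9 were above background on all 4 arrays, while Dcn was so on 2 arrays and Lum on none. Some of these markers were lower in the knockout at both numbers, with the largest mean log2 differences in Pdgfra and Dcn. Pdgfra read 1515 and 357 against 134 and 210.3, and Dcn 138 and 103 against 41.4 and 37.9. Col1a1, Col1a2, Vim, Pdgfrb and S100a4 were also lower at both numbers. Col3a1, Fn1 and Thy1 went opposite ways at number 1 and number 2, and Lum, below background, read higher in the knockout at both. The summed signal of the list was 89063 and 109461 in wild-type and 79376 and 89128 in knockout cells, and its part in the serpin values was not tested. All 7 hepatocyte markers were below background on all arrays, albumin (Alb) among them. Array medians lay between 63.2 and 66.4 in MAS5 signal units, and precision is limited by the few arrays. Pagr1a read 1340.3 and 1389 in wild-type and 108 and 113 in knockout cells. Arrays of the same number resembled each other more (log2 signals correlated at 0.971 and 0.977) than arrays of the same genotype (0.918 and 0.920), so values are given by number.

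Of the 40 serpin genes, 8 were above background on all 4 arrays, 11 had a mixed reading and 21 were above it on none. A probe set counted as above background where its signal exceeded the 95th percentile of 83 probe sets for olfactory, vomeronasal and taste receptor genes on the same array. That limit was 39.8 and 38.4 on the wild-type arrays and 44.3 and 50.8 on the knockout arrays, in order of number. Among all named genes, 57.6% were above background on all 4 arrays by their brightest probe set, against 20% of serpin genes. By the brightest probe set, 28.2% of all named genes were above it on none. For the 21 serpin genes every probe set had to be so. The 8 genes were Serpinb6a, Serpinb6e, Serpinb8, Serpinb9, Serpinb9b, Serpinf1, Serpinh1 and Serpini1. Signals of different probe sets do not rank RNA amounts, so each gene is compared only with itself and with its limit.

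**Figure D1:**
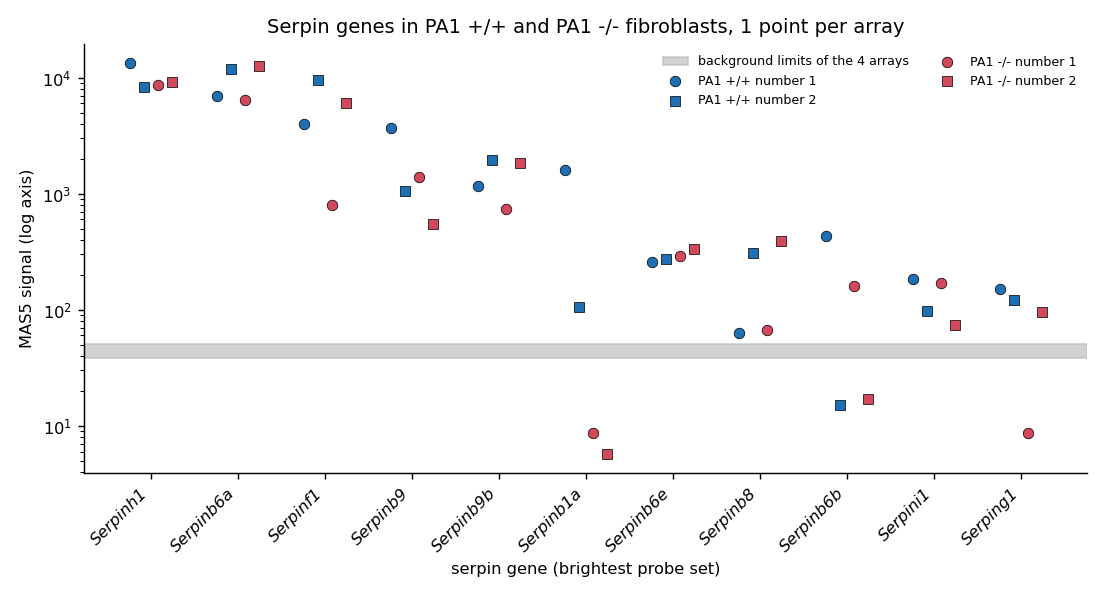
MAS5 signal (log axis) of the 11 serpin genes with a tested probe set, 1 point per array, read through each gene's brightest probe set; blue is PA1 +/+, red is PA1 -/-, circles are number 1 and squares number 2, and the grey band spans the background limits of 38.4 to 50.8. Serpinb1a lies above the band only in the wild-type arrays, and Serpinb6b only in the arrays numbered 1.

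Clade A was quiet, with none of its 14 genes above background on all 4 arrays. Of the 14, 10 were above it on none, against 28.2% of all named genes. The 10 include Serpina10, an inhibitor of coagulation factors, with signals from 11.02 to 30.7, and Serpina6, the corticosteroid carrier of plasma, from 4.07 to 38.1. The other 4 were above the limit on some arrays. Serpina3n, an antichymotrypsin-like inhibitor of the acute phase, read 36.8 and 63.6 in wild-type and 8.38 and 25.4 in knockout cells, in order of number. Only the wild-type array numbered 2 exceeded its limit for this gene. Serpina9 read 24.5, 41.1, 12.3 and 54.0 in wild-type 1 and 2 and knockout 1 and 2, Serpina3a stayed between 23.0 and 38.7, and the brightest probe set of the pseudogene Serpina4-ps1 between 10.1 and 53.4.

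Beyond clades A and B, the dim members were Serpinc1 (antithrombin, 34.3 to 42.6), Serpind1 (heparin cofactor II, 19.9 to 55.1), Serpinf2 (the plasmin inhibitor alpha-2-antiplasmin, 11.1 to 52.4) and Serpini2 (1.44 to 19.2). The first 3 crossed the limit on 1 array each and Serpini2 on none. In clade B, 10 of 18 genes were above the limit on none, against 28.2% of all named genes. Among the 10 were the epithelial serpins Serpinb5 and Serpinb11, whose brightest probe sets read 18.1 to 34.7 and 16.8 to 31.4. Serpinb2, which inhibits urokinase, read 25.5 and 0.689 in wild-type cells and 49.6 and 38.4 in knockout cells, above the limit on 1 array. Across the 28 probe sets of the 21 genes above background on none, signals ran from 0.199 to 38.1 with a median of 7.28.

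Genotype was tested on the brighter 50% of the probe sets, ranked by mean log2 signal, which took in 14 serpin probe sets of 11 genes. These were the 8 genes above and Serpinb1a, Serpinb6b and Serping1, so 29 serpin genes had no test. With genotype as the only term, limma passed 0 of the 14 serpin probe sets at an adjusted p under 0.05, with the smallest at 0.9998. It also passed 0 of all 22519 (0.0%). At an unadjusted p under 0.05 there was 1 of the 14 serpin probe sets, of Serpinb1a, and 440 among all 22519 tested. The differences below are therefore values at each number, on the log2(signal + 9.96) scale and knockout minus wild type, and none of them passed this test. With the replicate number as a second term, which the labels do not call for, 4 of the 14 passed (1 of Serpinb1a, 1 of Serpinb9 and both of Serpinf1), all lower in the knockout. In that fit 1.46% of all tested probe sets passed as lower and 0.524% as higher. Serpinb1a entered the tested set through its wild-type arrays alone, so its pass is no support.

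Of the 11 genes, 6 were lower in the knockout at both numbers, against 29.3% of all 10714 genes tested. Another 2 were higher at both, against 33.9% of all genes. The median difference over the 11 was -0.35 (0.02 over all genes), at -0.64 within number 1 and -0.06 within number 2. Over the tested probe sets the median was -0.49, and it was -0.07 when every serpin probe set was taken in. Between the arrays numbered 1, 5 of the 11 genes were at least 2-fold lower in the knockout, against 2.47% of all genes. They were Serpinb1a, Serping1, Serpinf1, Serpinb9 and Serpinb6b. Serpinb1a, Serping1 and Serpinb6b were each under the limit on some arrays and passed the filter on mean signal through the others, so the counts of lower genes are a description and no support. Between the arrays numbered 2 there was 1 of the 11, Serpinb1a, against 2.13% of all genes. None of the 11 was at least 2-fold higher at either number (1.36% and 0.896% of all genes). Among untested genes, Serpinb2 differed by 2.18 at number 2 and Serpinb1b by -1.71 at number 1, each with both readings below the limit. Among the 11, the genotypes had no overlapping values in 2 genes that were lower, Serpinb1a and Serping1 (11.3% of all genes). Nor did the genotypes overlap in 1 that was higher, Serpinb6e (15%).

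**Figure D2:**
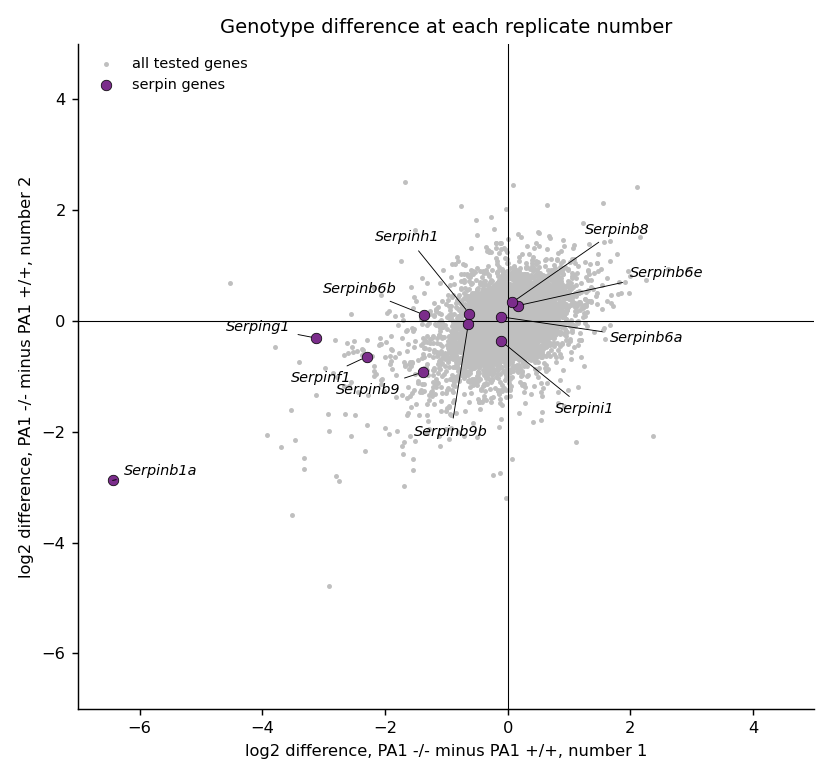
Difference between PA1 -/- and PA1 +/+ at number 1 (x axis) and number 2 (y axis), in log2(signal + 9.96) units, with each of the 10714 tested genes in grey and the 11 serpin genes in purple. Serpinb1a stands at -6.44 and -2.88, and Serping1, Serpinf1, Serpinb9 and Serpinb6b lie to the left at number 1 and closer to 0 at number 2.

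Serpinb1a had the largest difference of the 11 tested serpin genes. It encodes a clade B inhibitor of neutrophil serine proteases such as elastase and cathepsin G. Its brightest probe set read 1610.3 and 106 in wild-type cells and 8.68 and 5.75 in knockout cells, in order of number. Both wild-type arrays were above their limits and both knockout arrays far below theirs, so the fold is a bound: at least 36.4-fold lower at number 1 and at least 2.08-fold lower at number 2, against the higher of each pair's limits. On the log2 scale the differences were -6.44 and -2.88 (mean -4.66, SE 1.27, limma adjusted p = 0.9998), and values this close to background depend on the pseudocount. It was the 1 tested serpin gene at least 2-fold lower at both numbers, where 0.831% of all genes were so and 0.187% were at least 2-fold higher. Serpina3n, which had no test, differed by -1.35 and -1.06. Serpinb1a entered the tested set through its wild-type arrays alone, so this count is no support. With a pseudocount of 1 or with the upper 30% filter Serpinb1a was not tested. A second probe set, whose name ends in _s_at and so may match related transcripts, read 158 and 13.2 against 16.9 and 14.9. Its bound at number 1 was at least 3.56-fold lower, and at number 2 both readings were below the limit. The wild-type level itself differed between the numbers (number 2 minus number 1: -3.81), by more than the genotypes differed at number 2.

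The proteases that Serpinb1a is known to inhibit were below background on all 4 arrays: Elane (4.56 to 37.6), Ctsg (2.67 to 5.95) and Prtn3 (7.13 to 23.9). Of 6 macrophage and leukocyte markers, 3 were below background on all arrays, including the pan-leukocyte gene Ptprc at 11.5 and 16.8 in wild-type and 3.83 and 3.95 in knockout cells. The summed signal of the list was 425 and 311 in wild-type and 452 and 386 in knockout cells. Cd68 and Csf1r were above background throughout and went opposite ways. Csf1r was higher in the knockout at both numbers (log2 differences 0.82 and 0.63), and Cd68 was lower (-0.35 and -0.29). In bulk RNA, fewer cells of a kind and less RNA per cell cannot be told apart.

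Serpinb9, the intracellular inhibitor of granzyme B, was lower in the knockout at both numbers. It read 3692 and 1056 in wild-type cells and 1408 and 553 in knockout cells. The knockout was lower within each number, but the groups overlapped because both arrays numbered 1 exceeded both numbered 2. The differences were -1.38 and -0.92 (mean -1.15, SE 0.757, limma adjusted p = 0.9998). A second, dimmer probe set read 943 and 157 against 318 and 112, with differences of -1.54 and -0.46. Gzmb itself was below background on all arrays (6.05 to 30.7), as was Gzma (4.54 to 16.9).

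Serpinb9b, a close relative that lies next to Serpinb9 in the genome, differed less between genotypes. It read 1171 and 1937 in wild-type cells and 746 and 1857 in knockout cells, so that the arrays numbered 2 were the higher ones. Its differences were -0.64 and -0.06 (mean -0.35, SE 0.53, limma adjusted p = 0.9998). The 250 bases before each gene start, from RefSeq (build GRCm38.p6), are shown because the neighbours differ in level by number and their promoters are alike near the start. They are Serpinb9 at chr13:33004291-33004540 and Serpinb9b at chr13:33027164-33027413, both on the plus strand. Capitals mark a match to any of 6 motifs, searched on both strands.
Serpinb9: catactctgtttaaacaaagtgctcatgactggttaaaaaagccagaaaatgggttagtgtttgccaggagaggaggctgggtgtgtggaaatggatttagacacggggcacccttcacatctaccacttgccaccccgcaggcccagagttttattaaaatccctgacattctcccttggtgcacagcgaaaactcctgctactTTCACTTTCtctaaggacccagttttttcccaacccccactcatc
Serpinb9b: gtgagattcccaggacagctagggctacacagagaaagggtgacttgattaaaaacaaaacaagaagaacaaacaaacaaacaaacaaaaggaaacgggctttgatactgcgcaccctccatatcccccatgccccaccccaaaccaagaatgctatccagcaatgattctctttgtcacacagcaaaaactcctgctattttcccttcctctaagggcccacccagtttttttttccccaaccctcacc
The 1 match in Serpinb9 is to the interferon-response element GAAANNGAA, on the opposite strand, which 7.13% of 32851 promoter windows of this length hold. It begins 45 bases before the start. In a stretch of 39 bases around it, 32 were the same in the most alike stretch of Serpinb9b. Within the 9 bases of the match the differences from Serpinb9 to Serpinb9b were A4C and T8C, counted from the 5′ end of the capitals, and Serpinb9b held none of the 6 motifs. A match is a description of letters and not of a bound site.

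The other motifs were the TATA box (TATAAA), the Sp1-type box (GGGCGG), the NF-Y box (CCAAT), the AP-1 site (TGANTCA) and the C/EBP site (TTGCNNAA). None of the 6 overlapped another in the windows printed. Promoter windows were found for 34 of the 40 genes, 40 windows in all. TATAAA was in 10 of the 40 (12.4% of all windows), GGGCGG in 6 (32.7%), CCAAT in 14 (33.8%), TGANTCA in 9 (6.75%), GAAANNGAA in 4 (7.13%) and TTGCNNAA in 9 (9.56%). Serpin windows held few CpG dinucleotides, with medians of 2.0 for the 8 genes above background on all arrays and 3.0 for those above it on none, against 6.0 for all windows. Serpinb6a has 2 annotated starts, with 2 and 20 CpG.

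The clade B genes lie in a pair of clusters, and the cluster with Serpinb9 holds 17 serpin genes in RefSeq order, of which 11 had a probe set. From its Serpinb1a end, the first 3 measured genes were Serpinb1a, Serpinb6b and Serpinb9. All 3 were brightest on the wild-type array numbered 1 and at least 2-fold lower in the knockout at that number, against 2.47% of all genes. Serpinb1a and Serpinb6b passed the filter through the arrays where they were high, so this run is a description and no support. The next gene was Serpinb9b, then 4 genes below background on all arrays (Serpinb1b, Serpinb9c, Serpinb9d and Serpinb9g), and at the far end Serpinb6e, Serpinb6c and Serpinb6a.

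**Figure D3:**
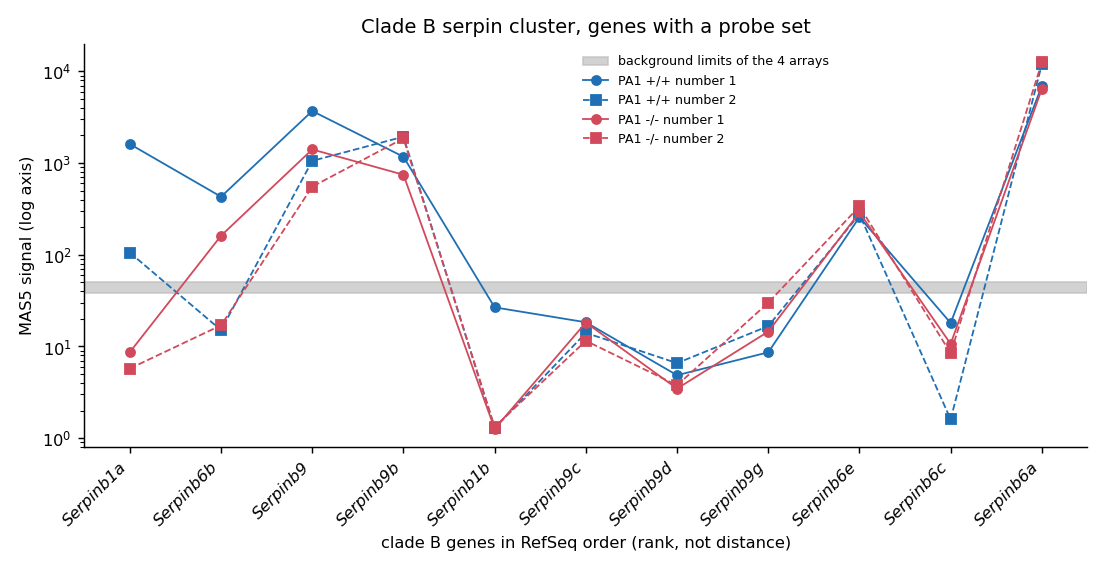
MAS5 signal (log axis) of the 11 measured genes of the clade B cluster in RefSeq order, by rank and not by distance; blue is PA1 +/+, red is PA1 -/-, solid lines with circles are number 1 and dashed lines with squares number 2, and the grey band spans the background limits. Lines only connect the points of 1 array. The arrays part at Serpinb1a, Serpinb6b and Serpinb9, and under the band at Serpinb1b and Serpinb6c among others. They run close together at Serpinb6e, and at Serpinb6a those numbered 2 lie above those numbered 1.

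Serpinb6b, a relative of the intracellular inhibitor Serpinb6a, was above background at number 1 alone. It gave 429 in wild-type and 161 in knockout cells at number 1, and 15.1 and 17.0 at number 2, below the limit. The difference at number 1 was -1.36, while at number 2 there was no level above background to compare. Of the epithelial markers, Krt18 also differed by number, with 298 and 266 on the arrays numbered 1 and 11.4 and 27.6 on those numbered 2. Cdh1 read 160 on the wild-type array numbered 1 and was below its limit on the other 3, while Krt5, Krt8 and Epcam were higher at number 2 in both genotypes. Of the 6 markers in that list 1, Epcam, was above background on all arrays, and the summed signal of the list was 706 and 307 in wild-type and 493 and 349 in knockout cells. Their part in the Serpinb6b values was not tested.

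Serpinb6a, an inhibitor of cathepsin G and related proteases that many cell types make, differed by less than the spread between arrays of 1 genotype. It read 6929 and 11906 in wild-type and 6426 and 12540.1 in knockout cells, with differences of -0.11 and 0.07 (mean -0.02, SE 0.425). Serpinb6e read 257 and 276 against 289 and 337, higher in the knockout by 0.16 and 0.28. Its probe set name ends in _x_at, which marks probes that may also match other genes, so its level is uncertain beside that of Serpinb6a. Serpinb8, an inhibitor of furin-like proteases and the clade B member above background in the other cluster, read 63.4 and 306 in wild-type and 67.5 and 390 in knockout cells. Its genotype differences, 0.08 and 0.34, were small beside the 2.11 and 2.37 by which number 2 exceeded number 1. A second, dimmer Serpinb8 probe set read 17.2 and 112 against 5.58 and 151, with differences of -0.81 and 0.40. Its arrays numbered 1 were below the limit.

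Serpinf1, which encodes pigment epithelium-derived factor, a secreted serpin that inhibits no protease and restrains vessel growth, was lower in the knockout at both numbers. It read 3954 and 9531 in wild-type cells and 794 and 6086 in knockout cells. The signal was 4.98-fold lower at number 1 and 1.57-fold lower at number 2, while the knockout array numbered 2 exceeded the wild-type array numbered 1. The log2 differences were -2.30 and -0.65 (mean -1.47, SE 1.05, limma adjusted p = 0.9998). A second probe set gave 2273 and 5914 against 337 and 3515, with differences of -2.72 and -0.75. Its neighbour Serpinf2 was near background. The window before the Serpinf1 start, chr11:75422624-75422873 on the minus strand, is shown with that of Serpinh1, chr7:99353240-99353489 on the minus strand, as examples of 2 secretory-pathway serpins with high signals.
Serpinf1: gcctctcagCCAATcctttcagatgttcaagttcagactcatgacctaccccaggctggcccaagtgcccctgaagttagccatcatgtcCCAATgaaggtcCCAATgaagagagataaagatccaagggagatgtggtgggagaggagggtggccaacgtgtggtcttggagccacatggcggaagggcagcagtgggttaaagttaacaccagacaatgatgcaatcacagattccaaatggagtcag
Serpinh1: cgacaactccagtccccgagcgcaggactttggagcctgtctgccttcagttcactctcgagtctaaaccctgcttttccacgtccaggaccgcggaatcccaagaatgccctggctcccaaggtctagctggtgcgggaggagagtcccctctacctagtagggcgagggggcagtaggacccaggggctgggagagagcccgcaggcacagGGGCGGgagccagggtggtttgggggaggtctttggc
Serpinf1 held CCAAT 3 times and 2 CpG, and Serpinh1 held GGGCGG once and 11 CpG.

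Serpinh1 encodes HSP47, the chaperone that binds procollagen in the endoplasmic reticulum, and was far above the limit on every array. It read 13266 and 8396 in wild-type cells and 8586 and 9205 in knockout cells. The wild-type array numbered 1 stood above the other 3, and the differences were -0.63 and 0.13 (mean -0.25, SE 0.256). A second probe set read 8763 and 6547 against 7167 and 6129, with differences of -0.29 and -0.10.

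Serping1 encodes the C1 inhibitor, which blocks the complement proteases C1r and C1s. It read 152 and 121 in wild-type cells and 8.65 and 96.1 in knockout cells. Both knockout values were below both wild-type values, but the knockout array numbered 1, the 1 array under its limit, set the size of the difference. Against the limit the signal was at least 3.42-fold lower at number 1, and it was 1.26-fold lower at number 2. The log2 differences were -3.12 and -0.31 (mean -1.71, SE 0.875, limma adjusted p = 0.9998). Without the knockout array numbered 1 the difference was -0.46.

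Serpini1 encodes neuroserpin, an inhibitor of tissue plasminogen activator known from neurons. It read 185 and 97.6 in wild-type cells and 172 and 73.6 in knockout cells, with differences of -0.11 and -0.36. A second, dimmer probe set went the other way, at 0.47 and 0.45, with 69.1 and 24.8 against 99.6 and 37.5, and its arrays numbered 2 were below the limit. Its target gene Plat read 1319.9 and 740.01 in wild-type and 811 and 650 in knockout cells.

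Serpin levels also differed between numbers. In both genotypes Serpinb8 and Serpinf1 were at least 2-fold higher at number 2 than at number 1 (3.78% of all genes), and Serpinb9 and Serpinb6b at least 2-fold lower (4.52%). With 1 array per genotype at each number, a change of the genotype difference from number 1 to number 2 was not tested.

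The proteases, receptors and cofactors that serpins act on or with were taken as a separate list. Of its 45 symbols 44 were measured, 20 were above background on all arrays and 23 were tested. None of the 23 passed limma at an adjusted p under 0.05, and 1, Htra1, had an unadjusted p under 0.05. Of the 23, 18 were below 0 and 5 above, with a median of -0.22 (0.02 over all genes). The share of all genes below 0 was not computed, so these counts are a description and no support. At least 2-fold lower at both numbers were 2 genes, C1s1 and Htra1, against 0.831% of all genes, and 0 were at least 2-fold higher. For C1s1 the fold at number 1 rests on a knockout reading below background. C1s1 passed the filter on mean signal through its wild-type arrays, so its place in this count is no support.

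The list holds complement proteases that the product of Serping1 inhibits. C1s1, one of the mouse C1s protease genes, read 63.1 and 394 in wild-type and 15.1 and 52.7 in knockout cells, with differences of -1.54 and -2.69. The knockout array numbered 1 was below its limit, so the bound there was at least 1.42-fold lower. C1ra, which encodes C1r, read 244 and 571 against 130.1 and 319, with differences of -0.86 and -0.82. Htra1, a secreted serine protease that cuts matrix proteins, read 3219 and 1527 against 1023 and 575, with differences of -1.64 and -1.39. In each of these 3 genes the knockout was lower within both numbers, as it was in 29.3% of all tested genes. They were named for the size of their differences, so this is no support. Masp1, a complement protease gene like C1s1 and C1ra, differed by 0.27 and -0.31.

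Among receptor genes of the LDL receptor family, Vldlr differed by -2.37 and -0.61 and Sorl1 by -0.95 and -0.69. The knockout arrays numbered 2 were below the limit for both, which left bounds of at least 1.59-fold and at least 1.04-fold lower there. In the same family Lrp1, the main receptor for serpin-protease complexes, differed by -0.20 and -0.24. Among coagulation regulators, Thbd (thrombomodulin) differed by -1.15 and -0.56 and Tfpi, which inhibits the tissue factor pathway, by -0.70 and -0.53. Averaged over its tested probe sets, Tfpi had a mean difference of -0.26, against -0.62 through the brightest. On the higher side stood the lysosomal protease gene Ctsh, which read 996 and 2709 in wild-type and 1683 and 4319 in knockout cells, with differences of 0.75 and 0.67. Plg, F2 and F12, the precursors of plasmin, thrombin and factor XIIa, were below background on all arrays.

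**Figure D4:**
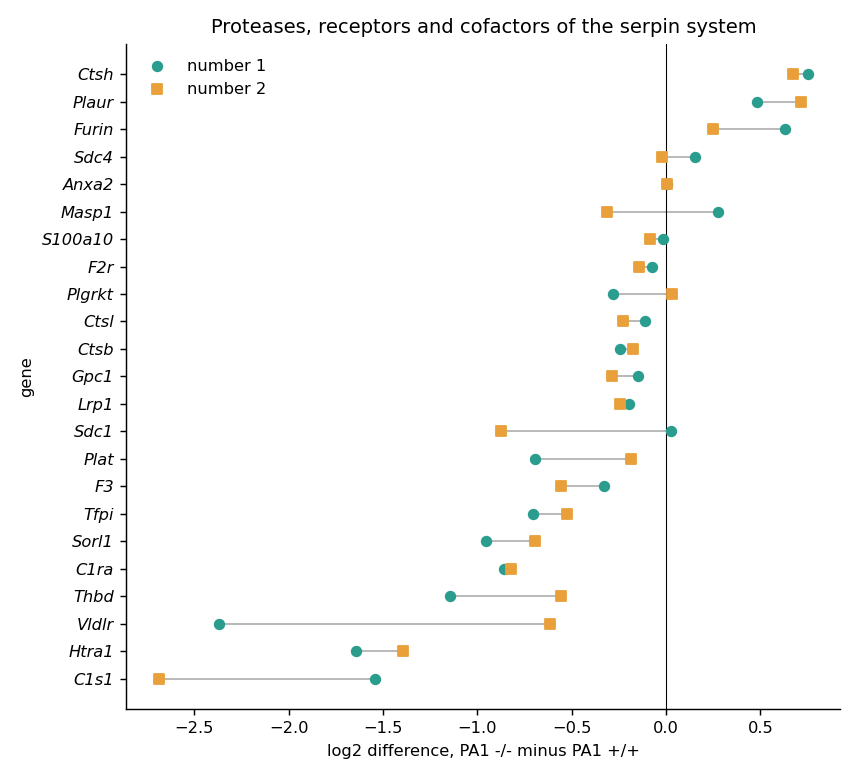
Difference between PA1 -/- and PA1 +/+ in log2(signal + 9.96) units for the 23 tested genes of the serpin system, with number 1 as circles and number 2 as squares joined by a line. C1s1 and Htra1 lie below -1 at both numbers, and Ctsh, Plaur and Furin lie above 0 at both.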

How the data were processed

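Total RNA of 4 fibroblast samples was hybridised to Affymetrix arrays, 1 array per sample. The deposited values are linear signal intensity per probe set, made by the authors with MAS5 per the submitters' processing notes; version, scaling target and genome build: not given in the sources used here. Mean intensity after trimming 2% at each end differed little between arrays (497.8 to 498.0), so differences are relative to each array's average. No detection calls were used, and 64 controls were left out.

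Symbols came from the platform annotation; all 40 serpin genes matched the RefSeq table of GRCm38.p6. Some serpin genes are not reported here. Values were taken as log2(signal + 9.96), the 20th percentile of all values, so changes of dim genes come out too small. The 22519 brighter probe sets (50%; limit near a signal of 62.8) were tested with limma 3.58.1 in R 4.3.3 (lmFit, eBayes with trend), 2-sided, Benjamini-Hochberg over all tested probe sets, group as the only term. Every adjusted p comes from this tool. Genes were read through their brightest tested probe set. An exact test of 2 arrays against 2 cannot go below p = 0.333.

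The rule named Pagr1a, serpin genes above background on all arrays or tested, up to 2 examples per clade of the others, and the 8 tested system genes with the largest differences; other genes named were chosen after their values were seen. Members and lists were chosen with earlier results of these data known. Alternatives covered normalization, pseudocount, filter, variance model, background limit, probe sets, each array left out in turn, and a block for the replicate number. The plots were made with matplotlib 3.10.9 (Python 3.11.15).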

Additional observations from a re-analysis of the deposited data

How the results depend on the processing

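None of the 22519 tested probe sets passed the test with genotype alone. The serpin count of 0, also 0 under the other settings with 4 arrays and no block, therefore says nothing about stability. Where 1 array was left out, the lone sample is assumed to vary like the other group. With the replicate number as a block (replicate block), 4 serpin probe sets passed, of Serpinb1a (adjusted p = 0.0023), Serpinb9 (0.00888) and both of Serpinf1 (0.0213 and 0.0214), all lower in the knockout. Serpinb1a entered the tested set through its wild-type arrays alone, so its p-value is no support. In the same fit 3 genes of the serpin system passed: C1s1, Htra1 and Ctsh. C1s1 passed the filter on mean signal through its wild-type arrays, so its pass is no support. Deviations from the group means correlated at 0.805 between arrays of the same number, but the labels do not say that a number marks a pair, and that fit leaves 1 residual degree of freedom. The 1 tested serpin gene at least 2-fold different at both numbers became 0 with a pseudocount of 1 and 0 with the upper 30% filter. In both settings Serpinb1a fell below the filter. The count became 2 without a filter, where Serpina3n joined Serpinb1a. Leaving out 1 array gave a median over tested serpin probe sets from -0.75 to -0.25, and 8 to 9 genes above background on all remaining arrays; other limits gave 7 or 8, and requiring every probe set of a gene gave 6.

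Signs turned for differences near 0 or set by the number. Serpinb6a stood at 0.064 after quantile normalization and 0.040 after median scaling. Leaving out 1 array, which also unbalances the numbers, gave ranges of -0.50 to 0.46 for Serpinb6a, -2.69 to 1.44 for Serpinb6b, -0.98 to 1.39 for Serpinb8, -1.01 to 0.30 for Serpinb9b, -0.58 to 0.082 for Serpinh1, -0.79 to 0.32 for Serpini1, -1.86 to 0.15 for Thbd and -0.0061 to 1.43 for Ctsh. The lowest and highest were -2.05 and -0.26 for Serpinb9, -2.94 and -0.01 for Serpinf1, -2.97 and -0.46 for Serping1 and -6.56 and -2.75 for Serpinb1a. In the serpin system they were -3.35 and -0.88 for C1s1, -2.05 and -0.98 for Htra1, -2.60 and -0.38 for Vldlr, -1.46 and -0.23 for C1ra and -1.45 and -0.19 for Sorl1. The 29 serpin genes below the filter had no test. What size of difference 2 arrays per group could detect near background was not computed.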
